A study of Mus musculus with 12 samples.

Results

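The genes described here are the transcription factor NRF2 (Nfe2l2) and 8 genes known as its antioxidant targets. They are Gclc, Gclm and Slc7a11, which supply glutathione, Gsta4 and Nqo1, which detoxify reactive compounds, Hmox1, which degrades heme, and Txnrd1 and Srxn1 of the thioredoxin system. The 9 genes were taken by symbol from the 24098 genes of an mRNA-Seq table that follows mouse fibroblasts on their way to pluripotency. All 9 reached 1 FPKM (fragments scaled to transcript length and to the size of the library) in at least 1 library, as did 14178 genes of the table, which are called the kept genes. Levels of different genes are compared per transcript length, since FPKM is scaled to length.

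Mouse embryonic fibroblasts (MEFs) that carry a GFP reporter at Oct4 were infected with pMXs retroviruses for Sox2, Klf4, Oct4 and c-Myc, together called OSKM, and mRNA was sequenced in 12 libraries, 1 for each of 12 conditions. D0 and D3 are unsorted cells of days 0 and 3. On days 6 and 9 the cells were sorted on Thy-1, a fibroblast surface protein, into D6T-, D6T+, D9T- and D9T+, and later, on days 12 and 16, on the pluripotent cell glycan SSEA-1 into D12S+, D12S-, D16S+ and D16S-. The Thy-1- and SSEA-1+ fractions are the route that the study treats as successful, and unsorted iPSCs and mESCs (the ES-D3 line) are the end points. The sources differ on the media. The labels place the infected cells, the iPSCs and the mESCs in FF medium, which holds knockout serum replacement, β-mercaptoethanol, LIF, ascorbic acid, bFGF, CHIR99021 and N-2 supplement, whereas the methods also name media with β-mercaptoethanol and LIF but without ascorbic acid. MEFs were grown in DMEM with fetal bovine serum. By either source the medium changed together with OSKM, so their parts cannot be told apart in any comparison with D0. The infected cells were never passaged or placed on feeder cells. The labels do not say whether the iPSCs are 1 clone.

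With 1 library per condition, no difference below has a replicate check and none was tested. The deposited table gives each FPKM with an interval from cuffdiff, which is modelled and contains no measured variation between cultures. Fold sizes and differences are on the scale of log2(FPKM + 1), which understates the change of low genes, and a gene is counted as higher or lower at 2-fold or more. The total FPKM of a library lay between 484968 in D16S+ and 648264 in D0, and its depth relative to D0, estimated from low genes, lay between 0.967 in D9T+ and 1.56 in D6T-. The sort was visible in the RNA, since Thy1 was at 3.24 FPKM in D6T- against 477 in D6T+. The summed level of 7 fibroblast markers (Thy1, 3 collagen genes, Postn, Twist2 and Pdgfrb) was highest in D0, with 7583 FPKM, and lowest in D16S+, with 33.5 FPKM, and that of 7 pluripotency markers was 4760 FPKM in D16S+ against 132.5 in D16S-. In such bulk samples, fewer cells that express a gene and less of its RNA per cell cannot be told apart.

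NRF2 is a leucine zipper transcription factor that is made continuously and is degraded in unstressed cells, because the adaptor KEAP1 presents it to a CUL3 ubiquitin ligase. Oxidants and electrophiles modify cysteines of KEAP1, NRF2 then accumulates, pairs with a small MAF protein and binds antioxidant response elements near its targets, where the repressor BACH1 can also bind. The level of Nfe2l2 mRNA is therefore not a measure of NRF2 activity, and the target genes also answer to other factors, such as ATF4 at Slc7a11 and BACH1 at Hmox1.

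The core letters of the antioxidant response element, TGACNNNGC, were searched on both strands of RefSeq promoters (GRCm38.p6 build, 250 bases before to 50 bases after each annotated start). The promoter table held 6 of the 9 genes, and Gclc, Gsta4 and Hmox1 had no entry. The core was found at 4 of the 6, namely Nfe2l2, Gclm, Txnrd1 and Srxn1, and in 14.0% of all 27025 genes of the table. For Txnrd1 it lay in 1 of its 3 promoters, so that 4 of the 8 promoters of the 6 genes held it, beside 12.4% of all 32851 promoters. A variant core that starts with TGAG, TGAGNNNGC, which was added after the sequences had been seen, was found at Srxn1 and Slc7a11 and in 19.8% of all genes (17.6% of promoters). The AP-1 letters TGANTCA were found at Srxn1 only among the 6, and in 8.97% of all genes (7.81% of promoters). One of the 2 AP-1 matches of Srxn1 overlaps its variant core TGAGTCAGC. No core was found in the window of Nqo1. The matches are shown because they are the letters through which NRF2 and MAF proteins are known to bind DNA, with the core in capitals and 10 bases on each side, each read 5′ to 3′ on the strand that is named.
Nfe2l2, chr2:75704885-75704913, minus strand, 232 bases upstream of the start: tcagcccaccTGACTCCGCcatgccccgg
Gclm, chr3:122245413-122245441, minus strand, 126 bases upstream: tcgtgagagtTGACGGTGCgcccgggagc
Txnrd1, chr10:82859104-82859132, minus strand, 84 bases upstream: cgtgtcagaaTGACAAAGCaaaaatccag
Srxn1, chr2:152105542-152105570, minus strand, 28 bases downstream: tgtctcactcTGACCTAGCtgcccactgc
Srxn1, variant core, chr2:152105469-152105497, plus strand, 37 bases upstream: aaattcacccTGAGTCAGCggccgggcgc
Srxn1, variant core, chr2:152105356-152105384, minus strand, 150 bases upstream: ccagagaggaTGAGTCGGCtctcagtaga
Slc7a11, variant core, chr3:50443692-50443720, plus strand, 89 bases upstream: aactccagctTGAGAAAGCgccaacatta
Such a match describes the letters only and does not show that a protein binds there in these cells. Srxn1 carried the most matches of the 6 genes, with 1 core and 2 variant cores.

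Nfe2l2 itself (chromosome 2, 75513570 to 75542698, minus strand, mm9) was highest in the fibroblasts and lowest in the mESCs. Along the successful route it was at 84.3 FPKM in D0, 48.7 in D3, 46.5 in D6T-, 43.8 in D9T-, 33.8 in D12S+ and 29.6 in D16S+. On the other route it was at 82.2 FPKM in D6T+, 65.8 in D9T+, 50.0 in D12S- and 53.8 in D16S-. The iPSCs, at 31.2 FPKM, were close to D16S+, and the mESCs were at 19.9 FPKM. Each step of the successful route was thus lower than the one before, and D6T+ stood near D0. The deposited interval of Nfe2l2 overlapped between every pair of libraries, for example 4.58 to 164 FPKM in D0 and 1.02 to 58.2 FPKM in D16S+.

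**Figure D1:**
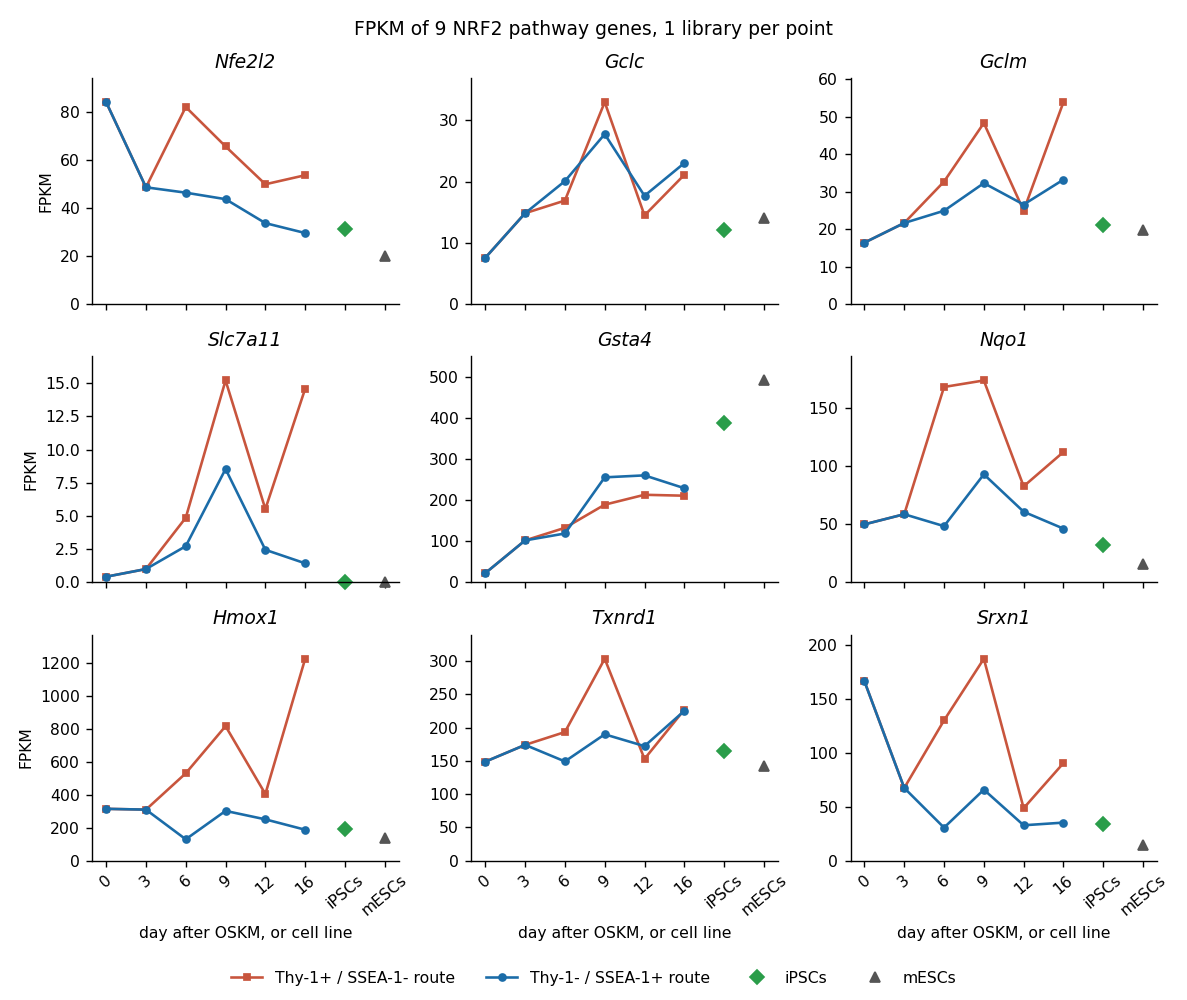
FPKM (linear axes that start at 0) of the 9 genes against the day after OSKM, with 1 library per point. Squares are the Thy-1+ and SSEA-1- fractions, circles the Thy-1- and SSEA-1+ fractions, both routes start from the shared libraries D0 and D3, and iPSCs and mESCs are drawn as a diamond and a triangle. Hmox1 and Slc7a11 show the widest gap on day 16, Gsta4 is highest in the pluripotent lines, and Txnrd1 varies least.

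The glutathione genes were lowest in fibroblasts or in the pluripotent lines and highest in between. Gclc (chromosome 9, 77602342 to 77642292, plus strand), the catalytic subunit of glutamate-cysteine ligase that performs the rate-limiting step of glutathione synthesis, was at 7.54 FPKM in D0, 14.8 in D3, 20.1 in D6T-, 27.8 in D9T-, 17.7 in D12S+ and 23.0 in D16S+. It was at 16.9 FPKM in D6T+, 33.0 in D9T+, 14.5 in D12S- and 21.1 in D16S-, and at 12.1 in iPSCs and 14.1 in mESCs. D0 was the lowest of the 12 libraries, both day 9 fractions were the highest, and the fractions of 1 day lay close to each other. Gclm (chromosome 3, 121948475 to 121972902, plus strand), the modifier subunit of the same enzyme, was at 16.4 FPKM in D0, 21.6 in D3, 24.9 in D6T-, 32.3 in D9T-, 26.6 in D12S+ and 33.2 in D16S+. It reached 32.7 FPKM in D6T+, 48.3 in D9T+, 24.9 in D12S- and 53.9 in D16S-, and was at 21.0 in iPSCs and 19.7 in mESCs. D16S- and D9T+ stood above all other libraries. Annotated genes overlap Gclm (Gm17494) and Nfe2l2 (a U6 gene), and reads there cannot be assigned with certainty. The modifier subunit was above the catalytic one in all 12 libraries.

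Slc7a11 (chromosome 3, 50168858 to 50247535, minus strand) encodes the cystine transporter subunit xCT, which brings in the cystine from which glutathione is built. It was at 0.418 FPKM in D0, 0.995 in D3, 2.72 in D6T-, 8.53 in D9T-, 2.44 in D12S+ and 1.43 in D16S+. On the other route it was at 4.86 FPKM in D6T+, 15.2 in D9T+, 5.51 in D12S- and 14.6 in D16S-. Both pluripotent lines were near 0, with 0.0230 FPKM in iPSCs against 0.00488 in mESCs. Slc7a11 was the only 1 of the 9 genes with deposited intervals that were apart in any of the 66 pairs of libraries. These were 6 pairs, in which D9T-, D9T+ and D16S- each lay above iPSCs and mESCs. The interval was 0.850 to 29.6 FPKM in D9T+ and 0 to 0.0857 FPKM in iPSCs.

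The 2 detoxification genes stood at opposite ends in the pluripotent lines. Gsta4 (chromosome 9, 78039773 to 78057155, plus strand), a glutathione transferase for 4-hydroxynonenal and other products of lipid peroxidation, was at 22.3 FPKM in D0, 102.2 in D3, 119.0 in D6T-, 256.1 in D9T-, 260.9 in D12S+ and 229.6 in D16S+. It was at 132.9 FPKM in D6T+, 189.4 in D9T+, 213.5 in D12S- and 211.3 in D16S-, and at 389.9 in iPSCs and 492.6 in mESCs. Every library after D0 was at least 4-fold above it, the mESCs were the highest, and the routes differed little. Gsta4 belongs to a multigene family, but its annotated locus is its own.

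Nqo1 (chromosome 8, 109912125 to 109927106, minus strand), which reduces quinones with NAD(P)H, was at 49.9 FPKM in D0, 58.7 in D3, 48.4 in D6T-, 93.1 in D9T-, 60.8 in D12S+ and 46.2 in D16S+. In the other fractions it was at 168.4 FPKM in D6T+, 174.0 in D9T+, 82.7 in D12S- and 112.4 in D16S-. It was at 32.2 FPKM in iPSCs against 15.4 in mESCs. The Thy-1+ fractions of days 6 and 9 were thus the highest and the pluripotent lines the lowest. The table gives Nqo1 a locus of 302432 bases that it shares with Nfat5, Nob1, Wwp2 and Mir140, and its deposited interval starts at 0 in all 12 libraries. Its levels are thus uncertain, and the intervals of other members, such as Slc7a11 and Hmox1, also start at 0 in some libraries.

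Hmox1 (chromosome 8, 77617490 to 77624495, plus strand), the inducible heme oxygenase that splits heme into biliverdin, iron and carbon monoxide, had the highest single level of the 9 genes. It was at 314.5 FPKM in D0, 309.7 in D3, 129.3 in D6T-, 302.0 in D9T-, 250.6 in D12S+ and 187.5 in D16S+. In the fractions of the other route it was at 530.6 FPKM in D6T+, 817.1 in D9T+, 404.8 in D12S- and 1227 in D16S-. It was at 191.6 FPKM in iPSCs against 137.4 in mESCs. All 4 Thy-1+ or SSEA-1- libraries were above D0, and all other libraries were below it. The deposited interval was 0 to 2912 FPKM in D16S-, 0 to 1696 in D9T+ and 0 to 1127 in D6T+, against 15.6 to 613 in D0.

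In the thioredoxin system, Txnrd1 (chromosome 10, 82296696 to 82360469, plus strand), the cytosolic thioredoxin reductase, varied least of the 9. It was at 148.8 FPKM in D0, 174.1 in D3, 149.2 in D6T-, 190.0 in D9T-, 172.3 in D12S+ and 225.3 in D16S+. It was at 193.4 FPKM in D6T+, 303.7 in D9T+, 153.0 in D12S- and 227.1 in D16S-, and at 164.9 in iPSCs and 141.9 in mESCs. D9T+ was the highest library, with a deposited interval of 0 to 625 FPKM that overlapped those of all others. The table gives Txnrd1 a locus shared with Eid3. Srxn1 (chromosome 2, 151931252 to 151937112, plus strand), sulfiredoxin, which restores overoxidised peroxiredoxins, was at 166.2 FPKM in D0, 67.3 in D3, 30.5 in D6T-, 65.7 in D9T-, 32.7 in D12S+ and 35.2 in D16S+. It was at 130.0 FPKM in D6T+, 187.1 in D9T+, 48.6 in D12S- and 90.4 in D16S-, and at 33.8 in iPSCs and 14.6 in mESCs. Its high libraries were D0 and the Thy-1+ fractions of days 6 and 9.

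The genes therefore differed in how far they ranged. The highest library exceeded the lowest by 4.41 on the log2 scale for Gsta4, 4.01 for Slc7a11, 3.59 for Srxn1, 3.42 for Nqo1 and 3.24 for Hmox1. The range was 2.03 for Nfe2l2, 1.99 for Gclc, 1.66 for Gclm and 1.09 for Txnrd1. Over all kept genes the median range was 1.57, with quartiles at 1.10 and 2.41. In the order of levels of each gene, the intervals of neighbouring libraries overlapped throughout.

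To see the first days of OSKM, D3 was compared with D0. Gsta4 was higher at D3 by 2.15 on the log2 scale (4.44-fold) and Srxn1 was lower by 1.29 (2.45-fold). The other members stayed within 2-fold, from -0.78 for Nfe2l2 to 0.89 for Gclc, with Gclc at 14.8 against 7.54 FPKM. The count was 1 of 9 higher beside 5.76% of all kept genes, and 1 of 9 lower beside 8.67%. The members' median difference was 0.23 and that of all kept genes -0.02. Hmox1 differed by -0.02 and was above 0 when all libraries were scaled to the same total FPKM. That scaling moved the median of all genes by 0.14 and the share of higher genes among those past 2-fold from 39.9% to 56.5%.

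The unsuccessful route was compared with its origin as D16S- against D0. Among the 9 genes 6 were higher, beside 12.8% of all kept genes, and 0 were lower, beside 11.4%. The 6 genes were Slc7a11 (3.46 on the log2 scale), Gsta4 (3.19), Hmox1 (1.96), Gclm (1.66), Gclc (1.37) and Nqo1 (1.15). Txnrd1 was at 0.61, whereas Nfe2l2 (-0.64) and Srxn1 (-0.87) were below D0. The median of the 9 was 1.37 and that of all kept genes -0.00. Scaling to the same total FPKM added 0.19 to the latter and moved the share of higher genes among those past 2-fold from 52.9% to 68.2%. The sum of 7 markers of macrophages, cells known for high Hmox1, was 145.1 FPKM in D16S- against 30.2 in D0, with 3 and 4 of the 7 at 1 FPKM or more. Most of it was Cd68 (115 against 9.05 FPKM) and Csf1r (19.9 against 1.55 FPKM). Itgam was at 0.354 against 0.272 FPKM and Cd14 at 9.03 against 9.79 FPKM, while Lyz2 was lower, at 0.509 against 9.47 FPKM. The leukocyte genes Ptprc (0.0269 against 0.0273 FPKM) and Fcgr1 (0.0188 against 0.0751 FPKM) were near 0 in both libraries. The part of such cells in the levels of Hmox1 was not tested.

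On the successful route, D16S+ against D0 gave 2 members higher, beside 20.0% of all kept genes, and 2 lower, beside 20.9%. Gsta4 (3.31 on the log2 scale) and Gclc (1.49) were higher, and Srxn1 (-2.21) and Nfe2l2 (-1.48) were lower. Gclm, at 0.98, was just under the threshold. Slc7a11 differed by 0.78, Txnrd1 by 0.59 and Hmox1 by -0.74. The median of the 9 was 0.59 and that of all kept genes 0.05. Nqo1 was at -0.11 and above 0 with all libraries at the same total FPKM, a scaling that moved the median of all genes by 0.31 and the share of higher genes among those past 2-fold from 48.9% to 65.6%. D16S- and D16S+ were both set against the same D0 library, so their differences from it share its error.

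The established iPSCs had 1 member above D0, beside 18.7% of all kept genes, and 2 below it, beside 21.6%. Gsta4 was 16.8-fold higher (4.07 on the log2 scale). Srxn1 was 4.80-fold lower (-2.26) and Nfe2l2 2.65-fold lower (-1.41). The other 6 lay between -0.71 for Hmox1 and 0.62 for Gclc, and the median of the 9 was -0.47 where that of all kept genes was 0.03. Scaling to the same total FPKM moved the latter by 0.16.

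From D16S+ to the iPSCs, 0 members were higher, beside 4.38% of all kept genes, and 1 was lower, beside 7.77%. That gene was Slc7a11, at 0.0230 against 1.43 FPKM (-1.25 on the log2 scale). Gclc (-0.87), Gclm (-0.63), Nqo1 (-0.51) and Txnrd1 (-0.45) were also below D16S+, and Gsta4 was above it (0.76). Nfe2l2 (0.07) and Hmox1 (0.03) changed sign under scaling to the same total FPKM, which moved the median of all genes by -0.12 and the share of higher genes among those past 2-fold from 36.1% to 22.9%.

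Between the pluripotent lines, iPSCs against mESCs, 2 members were higher, beside 6.79% of all kept genes, and 0 were lower, beside 7.41%. The iPSCs had 2.24-fold more Srxn1 (33.8 against 14.6 FPKM) and 2.03-fold more Nqo1 (32.2 against 15.4 FPKM). Nfe2l2 was at 0.63 and Hmox1 at 0.48 on the log2 scale, and Gsta4 was lower at -0.34. The deposited intervals of the 9 genes overlapped in all 10 comparisons made here.

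The sorted fractions of each day were then compared, which asks how the members differ between cells collected on the same day. On day 6, Srxn1 (-2.05 on the log2 scale), Hmox1 (-2.03) and Nqo1 (-1.78) were lower in D6T- than in D6T+. That made 3 of 9 lower, beside 9.47% of all kept genes, and 0 higher, beside 2.93%. The 3 genes were 4.15-fold, 4.08-fold and 3.43-fold apart. Nfe2l2 differed by -0.81 and Slc7a11 by -0.66, and Gclc alone was above 0, at 0.24.

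On day 9, Srxn1 (-1.49) and Hmox1 (-1.43) were lower in D9T- than in D9T+, 2 of 9 beside 6.45% of all kept genes, and 0 were higher, beside 1.81%. Nqo1 (-0.90), Slc7a11 (-0.77), Txnrd1 (-0.67), Nfe2l2 (-0.58) and Gclm (-0.57) were below 0 and within 2-fold. Gsta4 was above 0, at 0.43. On day 12 the fractions stood closer, with 0 of 9 lower in D12S+ than in D12S-, beside 3.03% of all kept genes, and 0 higher, beside 4.79%. The members ranged from -0.92 for Slc7a11 to 0.29 for Gsta4.

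On day 16, Hmox1 (-2.70), Slc7a11 (-2.68), Srxn1 (-1.34) and Nqo1 (-1.26) were lower in D16S+ than in D16S-. These were 4 of 9, beside 15.2% of all kept genes, and 0 were higher, beside 11.8%. Hmox1 was 6.51-fold and Slc7a11 6.42-fold apart. Gclc and Gsta4, both at 0.12, were nearly level, as was Txnrd1 at -0.01, whose sign changed under both other scalings of the libraries. The members' median was -0.66, -0.67, -0.44 and -0.84 on days 6, 9, 12 and 16, where that of all kept genes lay between -0.02 and 0.02.

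Over the 4 days together, 5 of the 9 genes were lower in the fraction of the successful route each time, namely Nfe2l2, Hmox1, Nqo1, Slc7a11 and Srxn1, beside 24.8% of all kept genes. The smallest of the 4 gaps was -0.55 for Nfe2l2, -0.69 for Hmox1, -0.44 for Nqo1, -0.66 for Slc7a11 and -0.56 for Srxn1. Gclc and Gsta4 were higher on 3 of the 4 days and by less than 2-fold. The count was also 5 of 9 with the other pseudocount and both other scalings, settings for which the share of all kept genes was not computed. The fractions also differed in the RNA levels of cell type markers. The fibroblast marker sum was 429 and 2929 FPKM in D6T- and D6T+, 364 and 2388 FPKM in D9T- and D9T+, 259 and 707 FPKM in D12S+ and D12S-, and 33.5 and 462 FPKM in D16S+ and D16S-, with 5 to 7 of the 7 markers at 1 FPKM or more and none at 0. The macrophage marker sum was 15.5 and 24.6 FPKM in D6T- and D6T+, 34.0 and 30.3 FPKM in D9T- and D9T+, 74.3 and 82.1 FPKM in D12S+ and D12S-, and 70.7 and 145.1 FPKM in D16S+ and D16S-, with 2 or 3 of the 7 markers at 1 FPKM or more. The sum of 6 epithelial markers was 88.0 and 72.3 FPKM in D6T- and D6T+, 265.2 and 139.5 FPKM in D9T- and D9T+, 737.1 and 400.9 FPKM in D12S+ and D12S-, and 881.8 and 1476 FPKM in D16S+ and D16S-. On day 16 Krt8 and Krt18 were higher in D16S-, while Cdh1 (130 against 44.6 FPKM), Epcam (150 against 74.6 FPKM) and Cldn4 (190 against 146 FPKM) were higher in D16S+. The part of these cell types in the differences was not tested. On day 9, Csf1r (0.564 against 1.98 FPKM) and Cd14 (4.94 against 9.39 FPKM) were lower in D9T- than in D9T+ and Cd68 (28.0 against 18.0 FPKM) was higher.

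**Figure D2:**
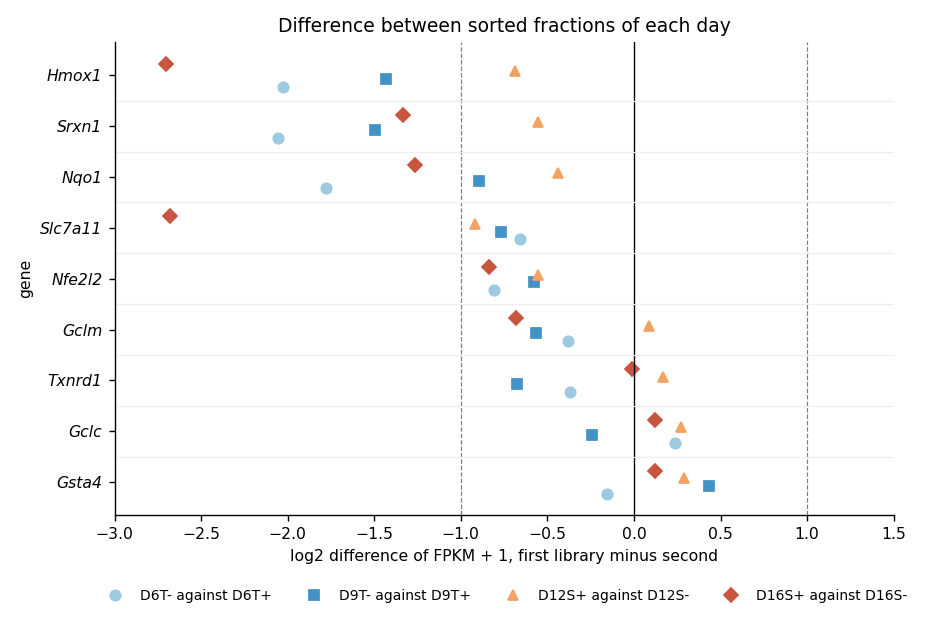
Difference of log2(FPKM + 1) between the sorted fractions of days 6, 9, 12 and 16 for each of the 9 genes, first library minus second, with 1 library per fraction. Dashed lines mark 2-fold. Hmox1, Srxn1, Nqo1, Slc7a11 and Nfe2l2 lie left of 0 on all 4 days, and Gclc and Gsta4 lie around 0.

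The members were then set beside a wider list of 53 other genes of the NRF2 pathway, arranged by role. The list holds none of the members, so its counts leave them out. Of its genes 51 were kept (Gsta2 and Abcc2 stayed under 1 FPKM in every library). The 8 regulators were followed first. Keap1, the adaptor that holds NRF2 down, was at 39.8 FPKM in D0, 20.3 in D16S+, 42.8 in D16S-, 15.6 in iPSCs and 8.27 in mESCs. Its lowest libraries were thus those in which Nfe2l2 was also low. Cul3, the ligase scaffold, stayed between 4.96 FPKM in D12S+ and 11.1 in D16S+, and Bach1, the competing repressor, between 6.89 FPKM in iPSCs and 18.2 in D9T+. Among the small MAF partners, Maff was at 10.6 FPKM in D16S+ against 32.5 in D16S-, Mafk at 11.8 and 30.2 FPKM, and Mafg at 41.3 and 49.8 FPKM. Maff and Mafk thus differed by more than 2-fold, and Mafg did not. Nfe2l1, the related factor NRF1, was at 91.0 and 142.2 FPKM in the same fractions. Sqstm1, the autophagy receptor p62 that binds KEAP1 and is itself an NRF2 target, was at 412.8 FPKM in D0, 770.7 in D9T+, 591.7 in D16S-, 253.6 in D16S+ and 193.4 in iPSCs. Between D16S+ and D16S-, 4 of the 8 regulators were lower by 2-fold or more (Maff -1.53, Mafk -1.29, Sqstm1 -1.22, Keap1 -1.04) and 0 were higher, beside 15.2% and 11.8% of all kept genes.

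For the whole wider list, 12 of 51 genes were higher and 3 lower in D16S- against D0 (12.8% and 11.4% of all kept genes), with a median of 0.26. In D16S+ against D16S- 3 were higher and 18 lower (11.8% and 15.2%), with a median of -0.54. In iPSCs against D0 2 were higher and 17 lower (18.7% and 21.6%), with a median of -0.53, and in iPSCs against D16S+ 1 was higher and 15 lower (4.38% and 7.77%), with a median of -0.21. On day 6, 2 were higher and 7 lower in the Thy-1- fraction (2.93% and 9.47%), and on day 9, 2 and 5 (1.81% and 6.45%). On day 12, 1 was higher and 4 lower in the SSEA-1+ fraction (4.79% and 3.03%). D3 against D0 gave 3 higher and 5 lower (5.76% and 8.67%), D16S+ against D0 8 and 9, near the background (20.0% and 20.9%), and iPSCs against mESCs 0 and 5 (6.79% and 7.41%). The medians of these last 3 comparisons (-0.07, -0.38 and -0.08) were above 0 with all libraries at the same total FPKM (0.19, 0.04 and 0.02). That scaling also moved the medians of all kept genes, from -0.02, 0.05 and -0.01 to 0.12, 0.35 and 0.05. In D16S+ against D0 the list thus stayed below all kept genes. On all 4 days 21 of the 51 genes (41.2%) were lower on the successful route, beside the 24.8% of all kept genes given above. Under that scaling 17 of the 51 were lower, and the share of all kept genes was not computed for it.

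**Figure D3:**
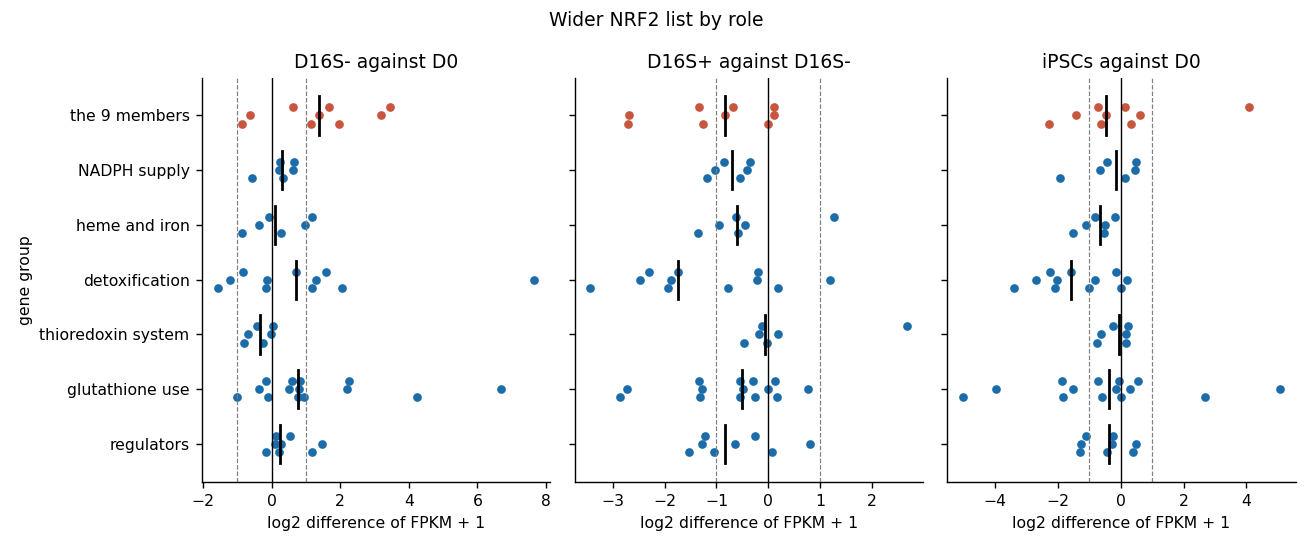
Difference of log2(FPKM + 1) for each gene (points) of the wider NRF2 list by role and for the 9 members, in D16S- against D0, D16S+ against D16S- and iPSCs against D0, with 1 library per condition. Black bars are group medians and dashed lines mark 2-fold. The members have a median of 1.37 in the left panel and -0.84 in the middle panel, and the detoxification genes have one of -1.75 in the middle panel.

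Among the 14 genes of glutathione use and recycling, Gpx2, a selenium-dependent peroxidase of epithelia, was listed at 0 in D0 and reached 191.5 FPKM in D9T-, 203.8 in D12S+, 114.8 in D16S+ and 101.9 in D16S-. It was higher in the fractions of the successful route by 2.24 on day 6, 1.59 on day 9, 1.28 on day 12 and 0.17 on day 16. Mgst1, a microsomal glutathione transferase, was at 43.3 FPKM in D0, 203.2 in D16S-, 29.8 in D16S+ and 0.373 in iPSCs. Mgst2, of the same family, was at 42.9 FPKM in D16S- against 5.01 in D16S+. Glrx, glutaredoxin, was at 40.6 FPKM in D0 against 7.11 in D3, a difference of -2.36. Gpx2 was thus higher on the successful route on all 4 days, by less than 2-fold on day 16, and Mgst1 and Mgst2 were higher on the other route on day 16.

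Of the 11 detoxification genes, Aldh3a1, an aldehyde dehydrogenase, was at 3.31 FPKM in D0, 132.5 in D3, 869.5 in D16S-, 79.6 in D16S+ and 0.436 in iPSCs. Akr1b8, an aldo-keto reductase, was highest in D0 at 389.9 FPKM and stood at 54.0 FPKM in D6T- against 269.5 in D6T+. Ephx1, the microsomal epoxide hydrolase, was at 123.4 FPKM in D0, 509.0 in D16S-, 91.3 in D16S+ and 10.9 in iPSCs. Nqo2, the relative of Nqo1, was low throughout, at 3.40 FPKM in D16S+ against 0.914 in D16S-. In D16S+ against D16S-, 6 of the 11 were lower and 1 was higher, beside 15.2% and 11.8% of all kept genes, with a median of -1.75.

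The heme and iron genes followed Hmox1 in part. Blvrb, a biliverdin and flavin reductase, was at 30.6 FPKM in D6T- against 134.2 in D6T+, then 70.7 FPKM in D9T- against 245.1 in D9T+. Fth1, the ferritin heavy chain, was at 2793 FPKM in D0, 597.8 in D16S+ and 1539 in D16S-, a level that is uncertain because reads shared with its pseudogenes were removed. Slc40a1, the iron exporter ferroportin, went the other way and was at 13.6 FPKM in D16S+, 5.04 in D16S- and 1.14 in iPSCs. Blvrb was therefore lower beside Hmox1 on days 6 and 9, and Slc40a1 was higher where Hmox1 was low on day 16.

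In the thioredoxin role, Prdx1, a peroxiredoxin with many pseudogene copies, was at 94.1 FPKM in D16S+ against 13.9 in D16S-, which is likewise uncertain. Txn2, mitochondrial thioredoxin, was at 242.3 FPKM in D0 against 100.3 in D16S+. The 5 kept genes of this role other than Prdx1 stayed within 2-fold in D16S+ against D16S-, as the member Txnrd1 did, whereas the member Srxn1 (-1.34) did not. Of the NADPH supply, Me1 (malic enzyme) was at 34.9 FPKM in D0 against 8.49 in iPSCs, Pgd (of the pentose phosphate pathway) at 165.2 FPKM in D16S+ and 376.0 in D16S-, and Taldo1 (transaldolase) at 171.8 FPKM in D9T- and 376.0 in D9T+. All 6 NADPH genes were lower at any size in D16S+ than in D16S-, where the median difference of all kept genes was -0.02. By 2-fold or more, 2 of the 6 were lower, beside 15.2% of all kept genes.

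Finally, the course of the 9 genes over the 12 libraries was compared by Pearson correlation of log2(FPKM + 1). These points share days, routes and the D0 library, so the values are descriptions. Over the 36 pairs of members the median r was 0.59, with 21 pairs above 0.5 and 5 below 0. The same was not computed for pairs of other kept genes, so whether members are more alike than other genes was not tested. Nfe2l2 and Srxn1 were the most alike (0.92), Hmox1 and Nqo1 reached 0.82, and Slc7a11 reached 0.87 with both Gclm and Nqo1. Gsta4 stood apart, at -0.75 with Nfe2l2 and -0.63 with Srxn1. With Thy1, r was 0.81 for Srxn1, 0.79 for Nfe2l2, 0.64 for Hmox1 and 0.56 for Nqo1. It was 0.26 for Slc7a11, 0.25 for Txnrd1, 0.09 for Gclm, -0.22 for Gclc and -0.61 for Gsta4. With the macrophage receptor gene Csf1r, it was 0.47 for Hmox1 and at most 0.42 for the other members.

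**Figure D4:**
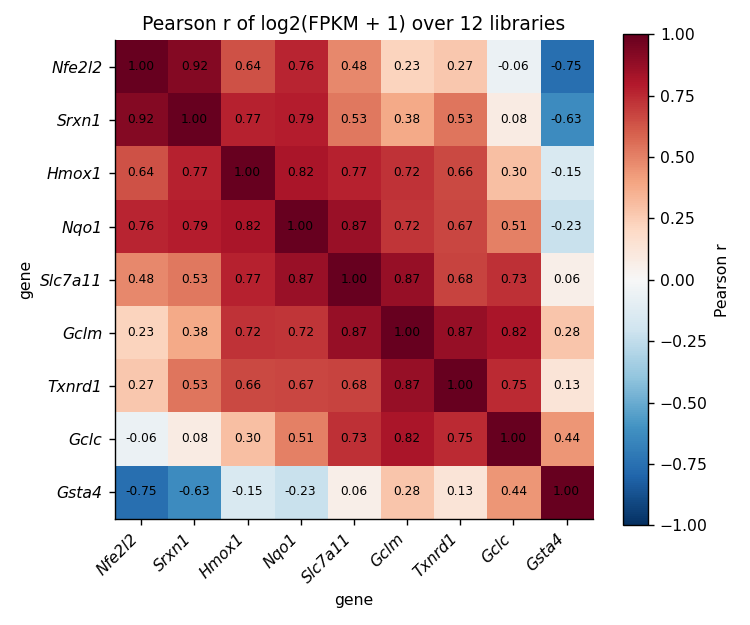
Pearson r of log2(FPKM + 1) over the 12 libraries for each pair of the 9 genes, from -1 (blue) to 1 (red). Nfe2l2 and Srxn1 have the highest r between different genes (0.92), and the row of Gsta4 holds the values below 0 except that of Nfe2l2 with Gclc.

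Among 10804 kept genes that reached 5 FPKM in a library, those most like each member over the 12 libraries were named. Nqo1 was closest to Cat (catalase, r = 0.95) and Cd55 (0.93), and Hmox1 to Ptgr1 (prostaglandin reductase, 0.93) and Dstyk (0.91). Srxn1 was closest to Atf5 (0.96, with 4 other genes in its table locus) and Sec62 (0.96). Nfe2l2 was closest to Pcdhga7 (0.98, uncertain because its table locus holds 62 other genes) and Hp1bp3 (0.98). Txnrd1 had another member, Gclm, as its nearest gene (0.87), followed by Dusp1 (0.84). Gclc was closest to Pir (0.90) and Tlr2 (0.89), and Gclm to Gbp4 (0.92) and Gbp8 (0.90), which belong to a multigene family. Slc7a11 was closest to Ntn4 (0.97, with 2 other genes in its table locus) and Fndc1 (0.96), and Gsta4 to Bid (0.93) and Gmfg (0.92).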

How the data were processed

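The authors sequenced polyA RNA with a TruSeq kit (the labels name the stranded version, the methods do not), mapped reads to mm9 with STAR, removed reads with more than 2 mismatches or more than 1 locus, and estimated expression with cuffdiff. The versions of the tools, the annotation and the scaling of libraries were not given in the sources used here. The deposited values are FPKM with the interval of each, 1 column per library, assigned through the day and the plus or minus of the sorted surface marker in the sample titles. Another 12 per-library columns, status words of cuffdiff, were not used. Reads with several loci are lost, so values are too low for genes with similar copies, such as Fth1, Ftl1, Prdx1 and the Gsta, Gstm and Gbp families. Absolute depth is unknown, and relative depth comes from the steps of genes under 0.5 FPKM.

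Genes with at least 1 FPKM in at least 1 library were kept. Differences are of log2(FPKM + 1) and counts use 2-fold. With 1 library per condition no test was run and no p-value is given. The members and lists were chosen with earlier results of these data known. Named from the wider list are the 8 regulators and, in each other role, genes with the largest rise or fall of at least 2-fold in a comparison. The 2 genes of highest correlation were named for each member. Lists of 4 superoxide and peroxide genes and 10 ATF4 genes were added for comparison. Alternatives were a pseudocount of 0.1, a same-total and a median-of-ratios scaling, no filter and a 4-fold threshold. Positions are GENCODE M1 (mm9, 1-based). Promoters and their coordinates are RefSeq (GRCm38.p6). The fold counts, medians and scalings were tested on simulated data without low genes, and the motif search, correlations and depth estimate were not. Python 3.11.15, numpy 2.4.6, pandas 2.3.3 and matplotlib 3.10.9 were used.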

Additional observations from a re-analysis of the deposited data

How the results depend on the processing

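Of 300 recomputed counts, medians, ranges and correlations, 262 stayed within a set margin and 38 did not. For counts the margin was 1.5 times the reported value. For medians and ranges it was a shift of 1.5-fold on the log2 scale, so a median near 0 could change sign within it. The same shift was allowed for the correlation, for which it is wide. With a pseudocount of 0.1, the members gave 2 higher in D3 against D0, 4 higher in D16S+ against D0 and 1 lower in D12S+ against D12S-, and the wider list gave 7 higher in D3 against D0 and 1 higher in iPSCs against mESCs. With all libraries at the same total FPKM, the members gave 2 higher in D3 against D0, 4 higher in D16S+ against D0 and 2 lower in iPSCs against D16S+, and the wider list gave 6 higher in D3 against D0 and 1 higher and 3 lower in iPSCs against mESCs. At a 4-fold threshold, which by construction counts fewer genes, the members gave 0 lower in D3 against D0, 1 lower in iPSCs against D0, 1 higher and 1 lower in D16S+ against D0, 2 higher in D16S- against D0, 0 lower in D9T- against D9T+, 2 lower in D16S+ against D16S-, 0 lower in iPSCs against D16S+ and 0 higher in iPSCs against mESCs. At 4-fold the wider list gave 1 higher and 2 lower in D3 against D0, 7 lower in iPSCs against D0, 5 higher and 4 lower in D16S+ against D0, 6 higher and 0 lower in D16S- against D0, 1 higher and 2 lower in D6T- against D6T+, 0 and 0 in D9T- against D9T+ and in D12S+ against D12S-, 1 higher and 5 lower in D16S+ against D16S-, 0 higher and 5 lower in iPSCs against D16S+ and 0 lower in iPSCs against mESCs. For the other settings the cause was not tested. Median-of-ratios scaling and no filter left every count within that margin. Of 510 single differences of members and regulators, chosen after seeing the data, 5 moved by more than 1.5-fold. All 5 were Slc7a11 at a pseudocount of 0.1, where it was at 1.08 in D3 against D0, -2.07 in iPSCs against D0, 1.56 in D16S+ against D0, 4.83 in D16S- against D0 and -3.63 in iPSCs against D16S+. No paired analysis was possible because each group holds 1 library, and no library can be left out of a comparison. Depth in fragments is unknown, and so is the scaling of cuffdiff.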

Other observations

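Antioxidant genes outside the NRF2 lists did not all follow the members. Among 4 genes of superoxide and peroxide removal, Sod3, the secreted superoxide dismutase, was at 39.8 FPKM in D0, 4.52 in D3 and 0.177 in iPSCs, and it was lower in the fraction of the successful route on each of the 4 days, with 3.93 against 26.7 FPKM on day 6 and 5.16 against 46.9 FPKM on day 9. Sod1, the cytosolic enzyme, lay between 550.4 FPKM in D0 and 1326 in mESCs, and Sod2, the mitochondrial one, between 25.8 FPKM in D16S+ and 52.4 in D9T+. Cat (catalase) was at 68.1 FPKM in D6T- against 123.8 in D6T+, and at 72.8 FPKM in D16S+ against 103.2 in D16S-.

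Since Slc7a11 is also a known target of ATF4, the factor of the amino acid response, a list of Atf4 and 9 of its known targets was set beside it. In D16S- against D0, where Slc7a11 was higher by 3.46 on the log2 scale, the list had a median of 0.30. There 3 of the 10 genes were higher and 0 lower by 2-fold or more, beside 12.8% and 11.4% of all kept genes. In D16S+ against D16S-, where Slc7a11 was lower by 2.68, the list had a median of 0.11. Here 1 of the 10 genes was higher and 1 lower, near the 11.8% and 15.2% of all kept genes. The part of ATF4 in the levels of Slc7a11 was not tested. Asns (asparagine synthetase) was at 72.9 FPKM in D16S+ against 23.5 in D16S-, and Ddit3 (CHOP) at 17.0 and 37.4 FPKM. Chac1, which degrades glutathione, was highest on day 9, at 23.4 FPKM in D9T- against 40.9 in D9T+, the day on which Slc7a11 was also highest in the sorted fractions of each route. Slc3a2, the partner chain of the transporter, was at 115.6 FPKM in D16S+ against 144.7 in D16S-, and unlike Slc7a11 it stayed at 107.7 FPKM in iPSCs.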
